A study of Mus musculus with 6 samples.

Results

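The genes described here are 10 that encode receptors, or receptor subunits, for the neuropeptides of sensory neurons. They were chosen by name, as the rows Calcrl, Ramp1, Ramp2, Ramp3, Tacr1, Adcyap1r1, Vipr2, Npy1r, Npy2r and Galr1 of a table of 45703 genes, and all 10 were found. The libraries came from 6 primary cultures of cells from the dorsal root ganglia (DRG), which lie along the spinal cord and hold the somata of sensory neurons with their glia. The donors were wild type, of strain C57BL/6 and 4 to 6 weeks old, and their ganglia were digested with Liberase TH and Liberase TM. The cells were grown on poly-L-lysine for 7 days in DMEM/F12 with GlutaMAX, 10% fetal calf serum, penicillin/streptomycin, and EGF and FGF at 10 ng/ml, and RNA from 2 dishes was pooled per sample. All 6 samples belong to 1 group, with no fresh ganglion, no sorted cells and no culture under another condition, so levels are compared between genes and between cultures only. The labels call the samples biological replicates but do not say which animals each came from.

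Sensory neurons release CGRP, substance P, PACAP and galanin, and the receptors for these peptides and for NPY are G protein-coupled receptors found on neurons, glia, vessels and immune cells. CGRP and adrenomedullin share one receptor protein, encoded by Calcrl, which needs a partner, a receptor activity modifying protein (RAMP), to reach the cell surface and to select its ligand. With RAMP1 it binds CGRP, and with RAMP2 or RAMP3 it binds adrenomedullin. NPY acts in the ganglion through Npy1r and Npy2r, which lower cAMP and calcium entry, whereas the PACAP receptor of Adcyap1r1 raises cAMP.

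The libraries held between 20070639 and 22968642 counts. Levels are given as CPM (the count of a gene scaled to a common library total) and, where genes are set against each other, as CPM per kb of combined exon length. The culture contained neuronal, glial and stromal transcripts in unequal amounts. All 12 genes of a neuron list (among them Tubb3, Stmn2 and Prph) reached 1 CPM in all 6 cultures, and their summed level lay between 1074 CPM in culture 5 and 2313 CPM in culture 3. All 5 genes of a glial list (among them Sox10, Erbb3 and Cdh19) did so too, at 4094 to 5928 CPM. Culture 5 stood apart: it had the highest summed level of the fibroblast list (14257 against 3718 to 7659 CPM in the others), the endothelial list (145 against 15.1 to 45.8 CPM), the mural list and the macrophage list, and the lowest of the neuron and glial lists. Culture 1 had the lowest of the fibroblast, endothelial, mural and macrophage lists. In such bulk samples, fewer cells of a type and less RNA per cell cannot be told apart.

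The receptor genes covered a wide range of levels, with the NPY receptor Npy1r at the top and the galanin receptor Galr1 at the bottom. By mean CPM per kb the order was Npy1r (7.82), Ramp2 (4.34), Npy2r (1.87), Calcrl (1.47), Adcyap1r1 (0.655), Ramp3 (0.352), Tacr1 (0.0788), Vipr2 (0.0504), Ramp1 (0.0470) and Galr1 (0.0109). Only 2 of the 9 steps in this order held in all 6 cultures, from Ramp2 to Npy2r and from Ramp3 to Tacr1. Npy1r exceeded Ramp2 in 5 cultures, Npy2r exceeded Calcrl in 4, Calcrl exceeded Adcyap1r1 in 5, and Adcyap1r1 exceeded Ramp3 in 4. At the low end, Tacr1 exceeded Vipr2 in 4 cultures and Vipr2 exceeded Ramp1 in 3, so these neighbours could not be ordered. Among the 27837 genes with any count, Npy1r stood at percentile 74.3 by CPM per kb, Ramp2 at 66.0 and Calcrl at 54.6. Tacr1 stood at 32.0, Vipr2 at 27.9, Ramp1 at 27.2 and Galr1 at 13.4.

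**Figure D1:**
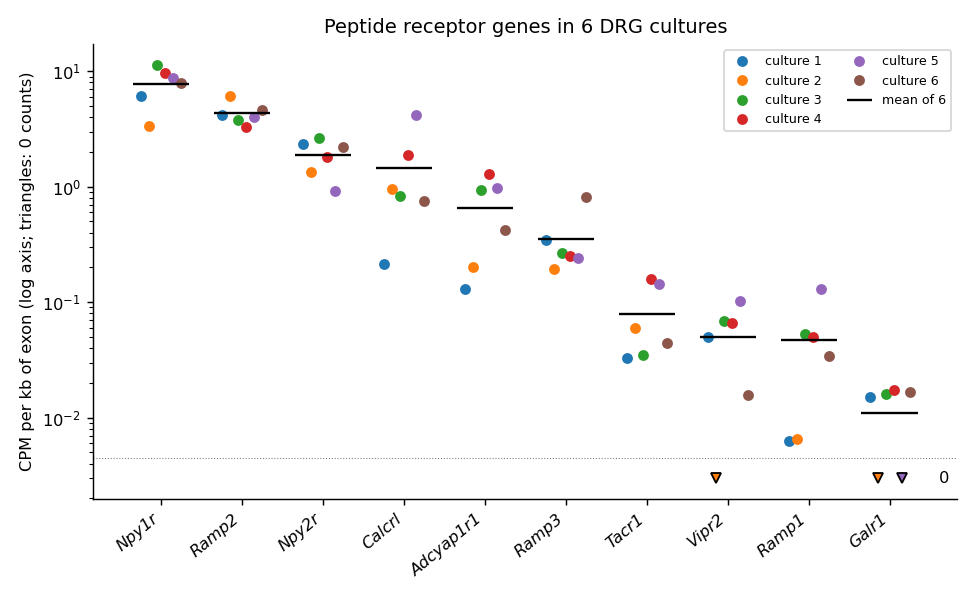
CPM per kb of exon (log axis) of the 10 receptor genes in the 6 cultures, 1 point per culture, with the mean as a bar and 0 counts as triangles. Npy1r and Ramp2 lead, and Vipr2, Ramp1 and Galr1 lie at a few counts or none in some cultures.

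Npy1r (chromosome 8, 66697149 to 66706800, GRCm38.p6) was the receptor gene with the highest level per kb in 5 of 6 cultures. It was lowest at 18.1 CPM in culture 2, had a median of 44.8 CPM and was highest at 61.9 CPM in culture 3. Its mean was 42.4 ± 15.3 CPM (SD, n = 6). The 5 other cultures lay between 33.0 and 61.9 CPM, so culture 2 was low alone. Its counts were fractional in 5 libraries, so part of its reads may have been shared with other places in the genome and its level is less certain.

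Npy2r (chromosome 3, 82538383 to 82548989), which encodes the NPY receptor best known as a presynaptic brake on release, was lowest at 3.92 CPM in culture 5, had a median of 8.62 CPM and was highest at 11.3 CPM in culture 3. Its mean was 8.03 ± 2.78 CPM (SD, n = 6). Npy1r lay above Npy2r per kb in all 6 cultures, by 1.99 ± 0.691 on the log2(CPM per kb + 0.1) scale (two-sided exact sign-flip permutation p = 0.0312, the smallest that 6 cultures allow; adjusted p = 0.0365 over 7 pairs). The ratio of their levels per kb ran from 2.498 in culture 2 to 9.50 in culture 5, so the balance of the 2 receptors was not the same in every culture. As for the correction, 1 pair alone at the smallest sign-flip p could not have passed over 7 pairs. Each adjusted p of 0.0365 from that test thus rests on several pairs together, some of which share genes.

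Npy2r followed the neuronal transcripts across cultures, and this was the only 1 of 8 fixed relations that passed the correction. Between log2 summed CPM of the neuron list and log2 CPM of Npy2r, Pearson's r was 0.98 (exact permutation p = 0.00139, adjusted 0.0111), while Spearman's rank rho was 1.00 (exact permutation p = 0.00278, adjusted 0.0222), over 6 cultures that fell in the same order by both measures. Without cultures 3 and 5, the farthest from the median neuron level, r was 0.996. With any single culture left out, r lay between 0.970 and 0.996, and the adjusted p between 0.0667 and 0.133. With 5 cultures the smallest exact permutation p is 0.00833, which 5 of the 6 omissions reached. It adjusts to 0.0667 for 1 relation alone, so 1 relation alone could not pass with 5 cultures. Without culture 1 the exact permutation p was 0.0167 (adjusted 0.133), above that smallest value. For Npy1r the same relation had r = 0.36 (exact permutation p = 0.493, adjusted 0.617) and rho = 0.31 (exact permutation p = 0.564, adjusted 0.644), and without cultures 3 and 5 r was 0.63. Leaving out single cultures moved r for Npy1r between 0.083 and 0.761, the highest without culture 5. Without cultures 1 and 5 it was 0.844. The low r of Npy1r thus depends strongly on culture 5. The difference between the relations of Npy2r and Npy1r was not tested. Culture 5, which had the least neuronal signal, had the lowest Npy2r but 47.1 CPM of Npy1r, above its median. Culture 2 had the lowest Npy1r but ranked above culture 5 in both the neuron list and Npy2r.

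**Figure D2:**
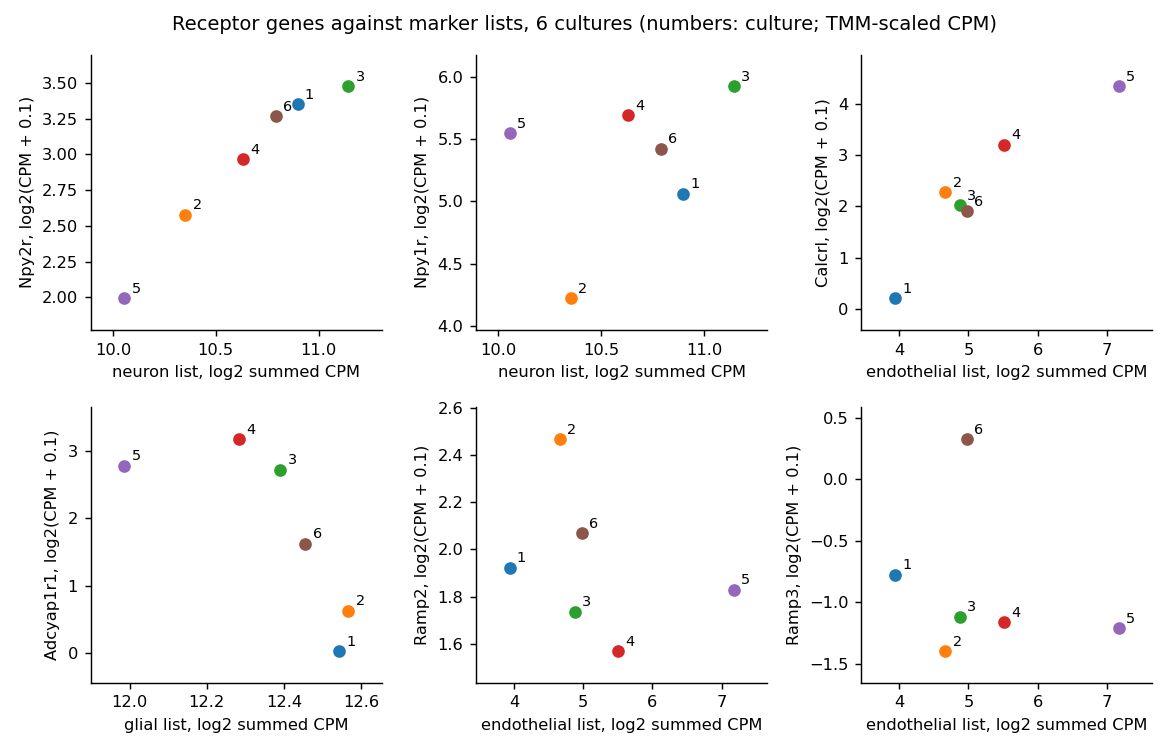
Log2 CPM of a receptor gene (y axis, TMM-scaled, the trimmed-mean library scaling) against log2 summed CPM of a marker list (x axis) in the 6 cultures, numbered. Npy2r lies in the order of the neuron list (rho = 1.00), and Npy1r does not follow it closely (r = 0.36, or 0.76 without culture 5). Calcrl is highest in culture 5 and lowest in culture 1, as is the endothelial list. The fibroblast, mural and macrophage lists, not drawn, had the same extremes.

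The genes with the profile most like that of Npy2r over the 6 cultures were Cntn2 (r = 0.997), an axonal adhesion molecule, Prss12 (r = 0.996), a neuronal secreted protease, and Ric3 (r = 0.995), a chaperone of acetylcholine receptors. For Npy1r they were Eepd1 (r = 0.997), Trarg1 (r = 0.991) and Dgkh (r = 0.989), a diacylglycerol kinase. With 6 points and 11932 candidate genes of at least 5 CPM such values are common: 356 candidates exceeded r = 0.9 for Npy2r and 144 for Npy1r. All of these profiles share the libraries and their totals.

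The remaining NPY receptors were scarce. Npy5r lies on the same chromosome as Npy1r, 9.05 kb away on the opposite strand with 0 genes listed between them. Its mean was 0.418 ± 0.193 CPM (SD, n = 6), from 3 to 14 counts per library, and the mean level of Npy1r per kb was 45.0 times that of Npy5r. Npy6r had at most 5 counts in any library, and Npy4r had 0 in all. The ligand gene Npy had a mean of 1.42 ± 0.448 CPM (SD, n = 6), and per kb it lay below Npy1r in all 6 cultures (means 2.51 and 7.82). Against Npy2r (mean 1.87) the ligand gene was higher in 5 of 6 cultures. In the other families the leading ligand gene lay above the receptors described here in all 6 cultures. Pyy and Ppy had 0 counts in every library.

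The CGRP and adrenomedullin receptor genes were unequal, with Ramp2 as the predominant RAMP transcript and Ramp1 near the limit of detection. Calcrl (chromosome 2, 84330626 to 84425405) was lowest at 1.04 CPM in culture 1, had a median of 4.35 CPM and was highest at 20.4 CPM in culture 5. Its mean was 7.15 ± 6.99 CPM (SD, n = 6), and its highest culture was 19.5 times its lowest. Without culture 5 its mean level per kb was 0.925, against 1.47 with all 6. Culture 4, at 9.17 CPM, was the next highest, and the other cultures lay at 4.64 CPM or less.

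Ramp2 (chromosome 11, 101246334 to 101248250) was the steadiest receptor gene, from 2.89 CPM in culture 4 through a median of 3.57 CPM to 5.31 CPM in culture 2, with a mean of 3.78 ± 0.840 CPM (SD, n = 6). Its counts were fractional in 2 libraries. Ramp3 (chromosome 11, 6658506 to 6677478) lay between 0.273 and 0.479 CPM in 5 cultures and at 1.15 CPM in culture 6, which had 24 counts (exact Poisson 95% interval 15.4 to 35.7, covering counting error only) against 6 to 11 in the others. Ramp1 (chromosome 1, 91179822 to 91225196) had 1 count each in cultures 1 and 2 (exact Poisson 95% interval 0.0253 to 5.57 counts), 5 to 8 in cultures 3, 4 and 6, and 19 in culture 5. In culture 5 that made 0.908 CPM (exact Poisson 95% interval 0.546 to 1.42), and without this culture the mean of Ramp1 was 0.0302 CPM per kb, against 0.0470 with all 6. The counts of Ramp1 and of Calcrl were thus both highest in culture 5, whereas those of Ramp2 and Ramp3 were not. For Ramp1 this rests on 19 counts in that culture, which also had the highest sums of the fibroblast, endothelial, mural and macrophage lists.

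Of the summed level per kb of the 3 RAMP genes, Ramp2 made up 91.5% ± 3.96, Ramp3 7.39% ± 3.98 and Ramp1 1.09% ± 1.08 (SD, n = 6). Ramp2 exceeded Ramp1 by 4.94 ± 0.622 and Ramp3 by 3.39 ± 0.648 on the log2(CPM per kb + 0.1) scale, each in 6 of 6 cultures (two-sided exact sign-flip permutation p = 0.0312, adjusted 0.0365). The size of the difference from Ramp1 depends on the added 0.1, as Ramp1 lay mostly below it. Adding 1 instead gave 2.33, and adding 0.01 gave 6.63. Ramp1 lay below Ramp3 in all 6 cultures, with a mean difference of -1.55 ± 0.769 (exact sign-flip permutation p = 0.0312, adjusted 0.0365). Without division by exon length this difference was -0.67 and did not pass (exact sign-flip permutation p = 0.25, adjusted 0.292). The combined exons of Ramp1 span 6927 bases against 1398 for Ramp3 and 872 for Ramp2, so levels per kb of Ramp1 depend on which of its exons are in use, which counts per gene do not show.

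Calcrl exceeded Ramp1 in all 6 cultures, by 3.01 ± 0.939 on the same log2 scale (exact sign-flip permutation p = 0.0312, adjusted 0.0365). It lay below Ramp2 in 5 of 6, with a mean difference of -1.93 ± 1.37 that was not called (exact sign-flip permutation p = 0.0625, adjusted 0.0625) and that became 0.40 without division by length. Calcrl per kb was 4.72% of the summed RAMP level in culture 1, 13.5% to 52.0% in cultures 2, 3, 4 and 6, and 95.6% in culture 5. No relation over the cultures was called between Calcrl and the RAMP genes with enough counts. Calcrl with Ramp2 had r = -0.24 (exact permutation p = 0.646, adjusted 0.646) and rho = -0.37 (exact permutation p = 0.497, adjusted 0.644), and r was -0.49 without cultures 1 and 5. Calcrl with Ramp3 had r = -0.35 (exact permutation p = 0.419, adjusted 0.617) and rho = -0.77 (exact permutation p = 0.103, adjusted 0.206), and r was -0.48 without the same cultures.

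**Figure D3:**
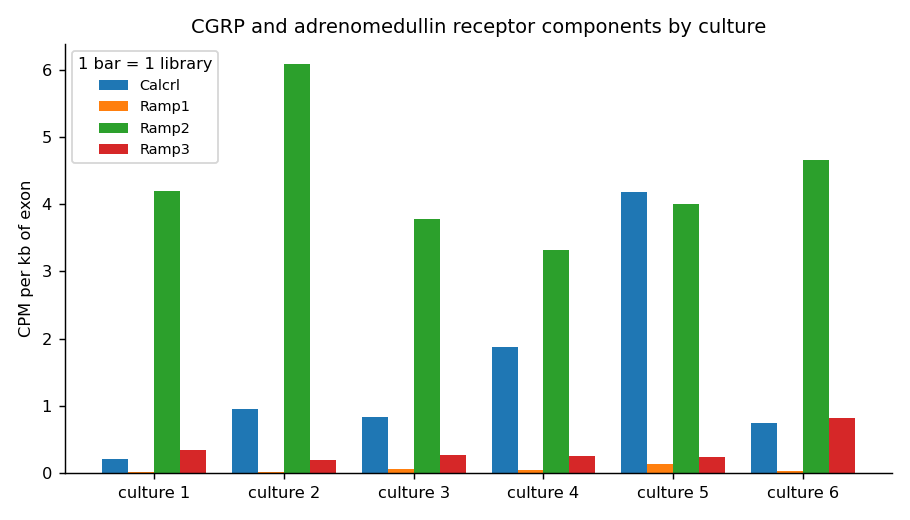
CPM per kb of exon of Calcrl, Ramp1, Ramp2 and Ramp3 in each of the 6 cultures, 1 bar per library. Ramp2 is the tallest bar except in culture 5, where Calcrl reaches 4.18 and Ramp2 4.00.

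Calcrl and Ramp2 are both known as abundant endothelial transcripts, and were set against the endothelial list. The relation with Calcrl had r = 0.94 (exact permutation p = 0.0139, adjusted 0.0556) and rho = 0.77 (exact permutation p = 0.103, adjusted 0.206), and did not pass the correction. It passed with a pseudocount of 1 (exact permutation, adjusted p = 0.0333) and with the mean log2 level of the list in place of its sum (r = 0.83, exact permutation, adjusted p = 0.00556). With a pseudocount of 0.01 or total count scaling it did not (exact permutation, adjusted p = 0.0556 each). Nor did it with any culture left out (exact permutation, adjusted p 0.0667 to 0.2), where 1 relation alone could not pass. Without cultures 1 and 5 r was 0.80. Ramp2 with the same list had r = -0.32 (exact permutation p = 0.504, adjusted 0.617) and rho = -0.49 (exact permutation p = 0.356, adjusted 0.569), with r = -0.80 without cultures 1 and 5. Ramp3 had r = -0.23 (exact permutation p = 0.540, adjusted 0.617) and rho = -0.20 (exact permutation p = 0.714, adjusted 0.714), and without cultures 1 and 5 r was 0.037.

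All 10 endothelial genes had their highest level in culture 5, but only 4 of 10 reached 1 CPM in every culture. Cdh5 led the list, and Cldn5 and Erg had 0 counts in at least 1 culture. The fibroblast, mural and macrophage lists also had their highest sums in culture 5 and their lowest in culture 1, so these extremes are not particular to the endothelial list. In the fibroblast list 6 of 8 genes were highest in culture 5. No relation of Calcrl with these other lists was run, and the part of any cell type in the level of Calcrl was not tested. The genes with the profile most like that of Calcrl were Rab3il1 (r = 0.9997), a Rab guanine nucleotide exchange factor, Arhgef40 (r = 0.9985) and Fbn1 (r = 0.9985), the microfibril protein fibrillin, which ran from 84.5 to 1310 CPM. Of 11932 candidates, 723 exceeded r = 0.9 with Calcrl. For Ramp2 the most similar genes were Prdx4, Zxdb and Nr2f2 (r = 0.98 each), with 74 of 11933 candidates over 0.9.

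On the ligand side, Calca, which encodes CGRP and calcitonin, was highest at 46.4 ± 11.3 CPM per kb (SD, n = 6), and Calcb followed at 3.85 ± 0.883. Calca exceeded Calcrl in every culture, with mean levels per kb that differed 31.7 times. Adm, which encodes adrenomedullin, ran from 1.18 CPM in culture 1 to 18.1 CPM in culture 5, with a mean of 8.74 ± 6.10 CPM (SD, n = 6). Its lowest and highest cultures were those of Calcrl, and also those of the fibroblast, endothelial, mural and macrophage lists. Ackr3, a scavenging receptor that also takes up adrenomedullin, ran from 5.44 CPM in culture 1 to 23.3 CPM in culture 5. The calcitonin receptor gene Calcr had 0 counts in all 6 libraries, and Gpr182 had at most 1. Crcp, which encodes a small protein that couples the CGRP receptor to signalling, was at 19.4 ± 0.975 CPM (SD, n = 6) and was the only tested gene of the 17 coupling genes that did not vary beyond counting noise (chi-square test, adjusted p = 0.533).

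Adcyap1r1, the receptor selective for PACAP, was the most abundant of the PACAP receptor genes and differed widely between cultures. It lies on chromosome 6 (55451501 to 55501455) and was lowest at 0.914 CPM in culture 1, had a median of 4.81 CPM and was highest at 9.02 CPM in culture 4. Its mean was 4.63 ± 3.32 CPM (SD, n = 6). Cultures 3, 4 and 5 lay at 6.65 CPM or more, and cultures 1, 2 and 6 at 2.96 CPM or less, with no value between.

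Vipr2 (chromosome 12, 116077420 to 116148637), whose product binds VIP and PACAP alike, had 0 counts in culture 2, 2 in culture 6 and 7 to 13 in the others, with a highest level of 0.621 CPM in culture 5. The 0 allows up to 0.137 CPM (3 counts of that library). Adcyap1r1 exceeded Vipr2 in all 6 cultures by 2.07 ± 0.867 on the log2(CPM per kb + 0.1) scale (two-sided exact sign-flip permutation p = 0.0312, adjusted 0.0365). The size of this difference depends on the added 0.1, as adding 1 gave 0.607 and adding 0.01 gave 3.41. Vipr1, the third receptor of this peptide pair, had at most 2 counts in any library. Of the ligands, Adcyap1, which encodes PACAP, was at 90.5 ± 22.0 CPM (SD, n = 6), and Vip had 0 counts in every library. Per kb, Adcyap1 exceeded Adcyap1r1 in all 6 cultures, with means of 14.7 and 0.655.

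PACAP receptors are known on glia, and Adcyap1r1 was set against the glial list. The sign was negative, with r = -0.75 (exact permutation p = 0.0778, adjusted 0.207) and rho = -0.89 (exact permutation p = 0.0333, adjusted 0.133), and did not pass the correction. Without cultures 2 and 5 r was -0.95. The genes with the most similar profile were Slc15a3 (r = 0.997), a lysosomal peptide transporter, Lyz2 (r = 0.994), the lysozyme of myeloid cells, and C1qa (r = 0.992), a complement subunit made by macrophages, with 213 of 11933 candidates over 0.9. The macrophage list, which holds C1qa, had summed levels of 119, 137 and 163 CPM in cultures 3, 4 and 5 and of 16.8, 29.7 and 41.6 CPM in cultures 1, 2 and 6, the same division as that of Adcyap1r1. Of its 8 genes, 6 reached 1 CPM in every culture, 0 were absent throughout, and 7 were lowest in culture 1. The division is not particular to macrophage transcripts: Adm lay at 11.0 CPM or more in cultures 3, 4 and 5 and at 6.55 CPM or less in the others. No relation of Adcyap1r1 with the macrophage list was run, and the part of macrophage transcripts in the level of Adcyap1r1 was not tested.

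Tacr1 (chromosome 6, 82402003 to 82560104), the receptor for substance P, was scarce although its ligand gene was not. It had 16 to 17 counts in cultures 4 and 5 and 4 to 7 in the others, from 0.174 CPM through a median of 0.279 CPM to 0.847 CPM. The exact Poisson 95% interval of culture 4, 9.90 to 27.2 counts, overlapped that of culture 1, 1.09 to 10.2 counts, but overlap is not a test. Without the filter on low counts described below, Tacr1 varied beyond counting noise over the 6 cultures (chi-square test, adjusted p = 0.000981). Tac1, which encodes substance P, was at 19.8 ± 8.47 CPM (SD, n = 6), and per kb it exceeded Tacr1 in all 6 cultures (means 14.9 and 0.0788). Tacr2 had at most 1 count in any library, as did Tacr3. Tac2 had 0 counts in every library, and Tac4 had 5 counts in culture 5 and 0 elsewhere.

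Galr1 (chromosome 18, 82392496 to 82406777), the galanin receptor that lowers cAMP, was at or under the detection limit in each library, with 1 count in 4 cultures and 0 in cultures 2 and 5. A count of 0 allows up to 0.137 CPM in culture 2 and 0.143 CPM in culture 5. Galr2 had at most 2 counts, and Galr3 at most 0.5, so no galanin receptor transcript exceeded 3 counts in any library. The ligand gene Gal was well counted, from 4.30 CPM in culture 5 to 19.8 CPM in culture 3, with a mean of 11.1 ± 5.60 CPM (SD, n = 6). The galanin family thus had a counted ligand and no receptor transcript detectable at this depth.

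**Figure D4:**
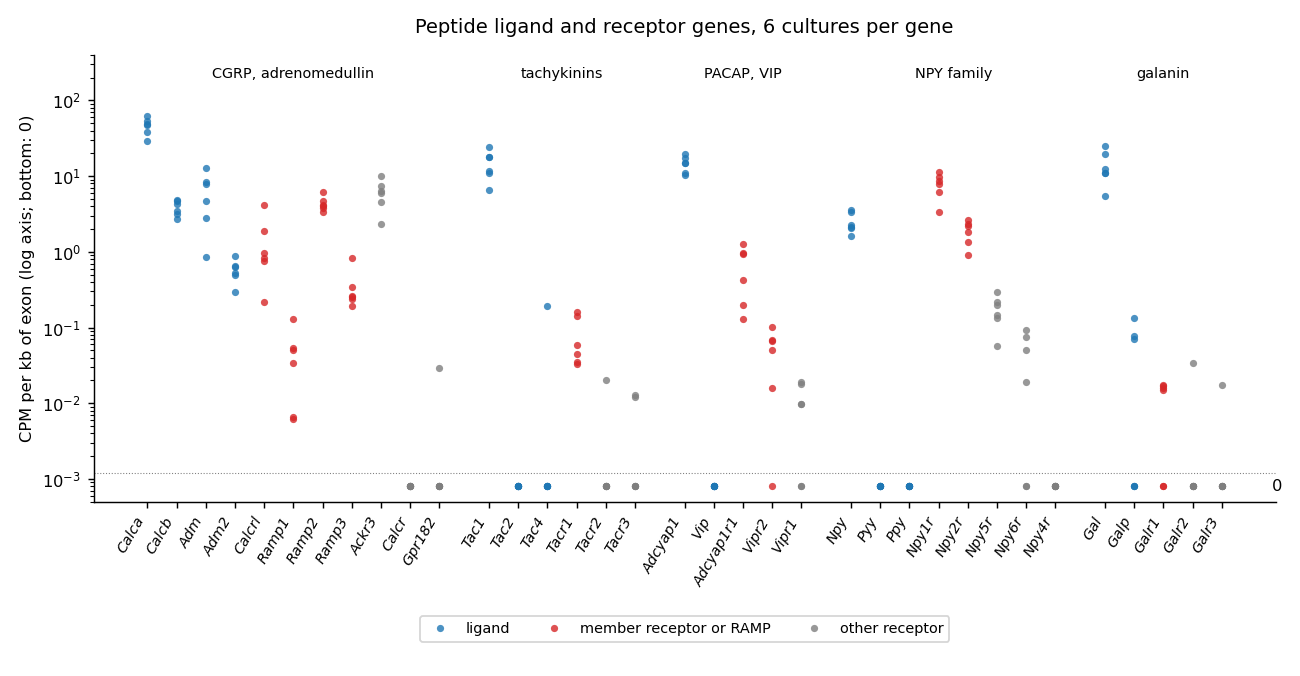
CPM per kb of exon (log axis, 0 at the bottom) of ligand genes, of the 10 receptor and RAMP genes described and of other receptors, 6 points per gene. In the tachykinin, PACAP and galanin families the leading ligand lies above every receptor, whereas Npy lies below Npy1r.

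Whether the receptor genes varied between cultures beyond counting noise was asked by comparing each gene's 6 counts with those that TMM-scaled library sizes predict (chi-square, 5 degrees of freedom), over 14998 genes kept by a filter on low counts, with Benjamini-Hochberg adjustment. The filter kept 5 of the 10: Calcrl, Ramp2, Adcyap1r1, Npy1r and Npy2r. All 5 were called, against a background of 76.3% of all genes tested, so being called does not set them apart. The adjusted p from the chi-square test was 1.1e-153 for Calcrl, 8.7e-117 for Npy1r, 2.9e-51 for Adcyap1r1, 2e-19 for Npy2r and 0.000811 for Ramp2. The call of Ramp2 rested on culture 2, and without it the adjusted p was 0.331. The 5 others were not tested because they had too few counts.

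The size of the spread separated them more than the calls did. The SD of log2(CPM + 0.1) over the 6 cultures was 1.38 for Calcrl and 1.28 for Adcyap1r1, above those of 98.1% and 97.4% of the tested genes of similar abundance (mean CPM within 1.5 times). It was 0.61 for Npy1r, above 97.1% of such genes, 0.56 for Npy2r, above 88.8%, and 0.31 for Ramp2, above 53.1%. The median over these 5 was 0.61, and over all tested genes 0.17. Ramp2 was thus near the middle of the genes of its level, whereas Calcrl, Adcyap1r1 and Npy1r were among the most variable of theirs.

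**Figure D5:**
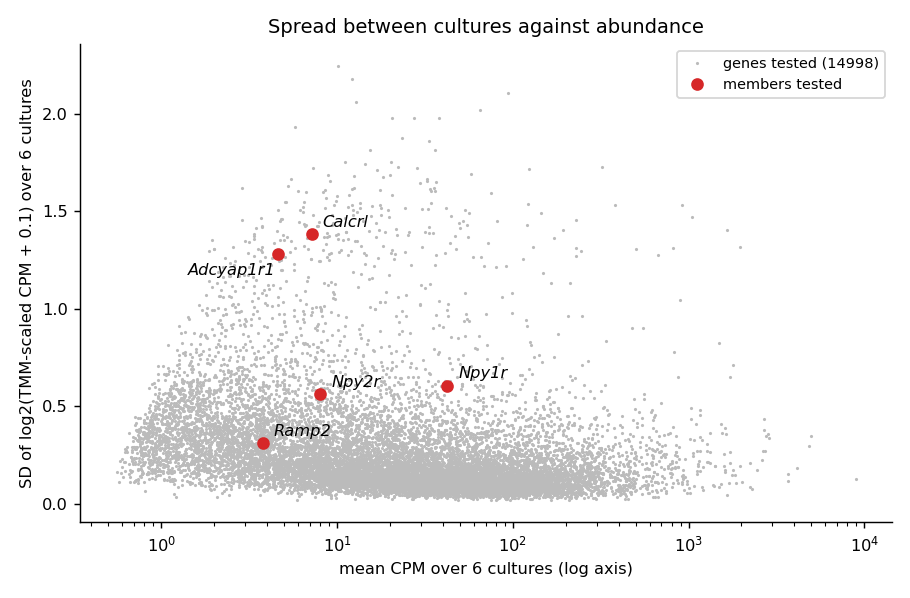
SD of log2(TMM-scaled CPM + 0.1) over the 6 cultures against mean CPM (log axis) for 14998 tested genes in grey and the 5 tested receptor genes in red. Calcrl (1.38), Adcyap1r1 (1.28) and Npy1r (0.61) lie above most genes of similar abundance, and Ramp2 (0.31) lies among them.

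The genes that act downstream of these receptors were mostly well counted. Of 18 coupling genes, 17 were tested and 16 called, against 76.3% of all genes tested, so the count says nothing particular to them. Gnas, which encodes the G protein subunit that raises cAMP, was at 1193 ± 65.5 CPM, and Gnai2, which encodes an inhibitory subunit, at 588 ± 32.0 CPM (SD, n = 6 each). Their SDs on the log2 scale were 0.08 and 0.10, below those of most genes of their level. Among the adenylyl cyclases, which make cAMP, Adcy6 led at 115 ± 10.1 CPM (SD, n = 6) and Adcy7 ran from 6.84 CPM in culture 1 to 105 CPM in culture 5, the cultures in which Calcrl was lowest and highest. Adcy3, Adcy4 and Adcy8 were also highest in culture 5, at 16.4, 3.92 and 4.78 CPM, whereas Adcy1 and Adcy6 were lowest there, at 17.7 and 102.5 CPM.

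Of the 4 peptidases that cleave such peptides, 3 were tested and all 3 called, with 76.3% of all tested genes called. Ece1, which degrades CGRP and substance P inside cells, was at 238 ± 23.3 CPM (SD, n = 6; counts fractional in all 6 libraries), and Mme, the membrane enzyme neprilysin, at 11.4 ± 3.53 CPM (SD, n = 6). Anpep, an aminopeptidase, ran from 1.39 CPM in culture 1 to 51.3 CPM in culture 5, and Dpp4, which trims NPY, had at most 11 counts in any library. Anpep and Calcrl thus had their extremes in the same cultures, as did the fibroblast, endothelial, mural and macrophage lists. The part of these cell types in the levels of Adcy7 and Anpep was not tested.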

How the data were processed

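The authors deposited 1 table of estimated counts per gene for the 6 cultures, not scaled; 14.1% of its cells are fractions, as reads divided among several places would give, although that handling and the strand setting are not given in the sources used here. The submitters' processing notes name bcl2fastq 2.20.0.422, cutadapt 2.5, STAR 2.7.2b, featureCounts 1.6.4 (Subread) and GRCm38.p6, without roles. Per the labels' protocols, 500 ng of RNA per sample went into a stranded poly-A library with 15 PCR cycles. All 45703 gene identifiers matched RefSeq on GRCm38.p6. The deposited column of combined exon length, in bases, served as another measure for CPM per kb.

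CPM used the library totals. Relations and spread used CPM scaled by TMM factors (edgeR 4.0.16, R 4.3.3), which lay between 0.977 and 1.02. Counts were rounded for the chi-square test, which was tested on simulated data; filterByExpr chose the genes tested, and a pseudocount of 0.1 was added before logs. Pairs of genes were compared within culture by exact sign-flip permutation (64 patterns; 7 pairs), and relations across cultures by exact permutation (720 pairings; 8 of 13 relations had a mean count of at least 10), each family with Benjamini-Hochberg adjustment and a threshold of 0.05. Of the overlapping genes on the opposite strand, Gm11978 at Ramp3 and Gm46383 at Vipr2 had 0 counts and Gm20658 at Vipr2 had 5 in all.

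Named genes were the 10 receptor genes, fixed lists of ligands, other receptors, coupling genes and peptidases, and, for each receptor gene with at least 1 CPM, the 3 genes with the highest r. The members and lists were chosen with earlier results of these data known. Sign-flip p-values give the share of sign patterns over these samples with a mean difference at least as large in size. Relation p-values give the share of pairings with an r or rho at least as large in size. Chi-square p-values measure the departure of counts from counting noise.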

Additional observations from a re-analysis of the deposited data

Results flagged for a closer look

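For 12 measures (6 receptor genes and 6 marker lists), the distance of the highest or lowest culture to the next one, as a share of the whole range over 6 cultures, was set against Dixon's critical value for 6 samples. Chance would flag about 0.6 of 12 measures if values were normally distributed, which was not tested. The critical value was exceeded by 3 measures, and the lists among them were flagged for the same culture. Ramp3 was at 1.15 CPM in culture 6 and at 0.479 CPM in the next highest culture, a ratio of 0.765. These are 24 and 11 counts, whose exact Poisson 95% intervals (15.4 to 35.7 and 5.49 to 19.7 counts) overlap, which is not a test. Without the filter on low counts, Ramp3 varied beyond counting noise over the 6 cultures (chi-square test, adjusted p = 0.00081). The endothelial list was at 145 CPM in culture 5 and 45.8 CPM in culture 4, a ratio of 0.764. The fibroblast list was at 14257 CPM in culture 5 and 7659 CPM in culture 4, a ratio of 0.626, just over the critical value. Calcrl, highest in the same culture, had a ratio of 0.580 and did not exceed it.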

How the results depend on the processing

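No pairing of samples between groups was possible because all 6 samples belong to 1 group. Leaving out replicates 1 and 5 together, the cultures at the ends of most marker lists, was chosen after seeing the data. The 7 differences kept their direction under both other pseudocounts and with any culture left out. Their sizes changed most with the pseudocount for the pairs with Ramp1 or Vipr2, which lay mostly below 0.1 CPM per kb. With pseudocounts of 1 and 0.01, Ramp2 minus Ramp1 was 2.33 and 6.63, and Calcrl minus Ramp1 was 1.07 and 4.55. Ramp1 minus Ramp3 was -0.354 and -2.89, and Adcyap1r1 minus Vipr2 was 0.607 and 3.41. With 5 cultures the smallest exact sign-flip p is 0.0625, so none could pass. With a single culture left out, the difference ranged from 4.76 to 5.10 for Ramp2 minus Ramp1, 3.19 to 3.59 for Ramp2 minus Ramp3, -1.75 to -1.31 for Ramp1 minus Ramp3, 2.77 to 3.30 for Calcrl minus Ramp1, 1.88 to 2.37 for Adcyap1r1 minus Vipr2 and 1.76 to 2.13 for Npy1r minus Npy2r. Without replicates 1 and 5 these 6 differences were 5.04, 3.37, -1.68, 3.07, 2.36 and 1.87 (smallest possible p 0.125). Without division by length, Calcrl minus Ramp2 reversed to 0.40 and Ramp1 minus Ramp3 was -0.67, because the gene lengths differ. Without the filter on low counts, 9 of 10 receptor genes varied beyond counting noise, against 13488 of 26854 genes (50.2%), because the 5 scarce genes then entered the test and only Galr1 was not called. With 1 culture left out, 4 or 5 of the receptor genes and 10118 to 11253 of all genes were called. The relation of the endothelial list with Calcrl did not pass with a pseudocount of 0.01, with total count scaling or with any culture left out. The same relation passed at r = 0.96 with a pseudocount of 1 and at r = 0.83 with the mean log2 of the list, and the cause was not tested. That of the neuron list with Npy2r had r from 0.970 to 0.996 with 1 culture left out and 0.97 without replicates 1 and 5, and passed in none of these fits; alone at the smallest p, a relation adjusts to 0.0667 with 5 cultures and 0.333 with 4, so these fits say nothing about stability. The endothelial list with Ramp3 reversed to r = 0.037 without replicates 1 and 5. Mean levels of all 10 genes moved by less than 1 SD under TMM scaling and with any culture left out, but the SDs are wide: without culture 5 the mean per kb fell 1.59 times for Calcrl, to 0.925, and 1.56 times for Ramp1, to 0.0302. Depth limits Ramp1, Vipr2 and Galr1, which had 3 counts or fewer in at least 1 library.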
